A study of Homo sapiens with 4 samples.

Results

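The core of the transforming growth factor beta (TGF-beta) pathway was examined in SAS cells, a human tongue squamous carcinoma cell line, after knockdown of AEG-1. It was represented by 10 genes chosen by name, with earlier results of these data known. They were the ligands TGFB1, TGFB2 and TGFB3, the receptors TGFBR1 and TGFBR2, and the intracellular SMAD2, SMAD3, SMAD4 and SMAD7. TGFBI, a TGF-beta-induced matrix protein, completed them. Each gene was read by 1 probe, found through the probe's RefSeq accession, so the core took 10 of the 34127 distinct probes and 10 of the 19062 genes that could be named. On each of the 4 arrays all 10 probes gave a signal well above background for SB and for SCt cells, and all were among the 28505 probes tested.

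SB cells stably carried a lentiviral pLKO.1 vector with shRNA-B against LYRIC, another name of AEG-1, whose gene is MTDH. The control, SCt cells, is a line with the pLKO.1 vector in the sample labels and with a scrambled shRNA in the published methods. Both lines were selected for 14 days with 2 μg/ml puromycin and grown in medium with fetal bovine serum. The sources describe the lines as stable clones, so 1 knockdown line was compared with 1 control line of the same origin. A difference between the lines that arose in selection, or an off-target effect of shRNA-B, therefore cannot be told apart from loss of AEG-1. If the control held the vector alone, an effect of carrying any shRNA cannot be told apart either. RNA from SB cells (red dye) and from SCt cells (green dye) was hybridized together on each of 4 Agilent arrays of 1 slide, which the labels call biological replicates. Separate cultures are not stated, so p-values measure the spread between these arrays, which may be technical. With 0 arrays of exchanged dyes, a probe's preference for a dye cannot be told apart from an effect of the knockdown, and with bulk RNA fewer expressing cells and less RNA per cell cannot be told apart. Every difference below is a log2 ratio of SB over SCt cells after background correction by normexp and loess normalization within each array.

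TGF-beta ligands are secreted in a latent complex and, once released, bind TGFBR2, which recruits and phosphorylates TGFBR1. TGFBR1 then phosphorylates SMAD2 and SMAD3, which join SMAD4 and enter the nucleus to regulate target genes, among them SMAD7, which in turn blocks the receptor. In squamous epithelium the pathway is known for growth arrest of normal keratinocytes and, in carcinoma, for roles in invasion and matrix deposition.

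Of the 10 genes, 3 were higher in SB cells, TGFB2, SMAD7 and TGFBI, and their promoters are shown because these members carry the finding. The sequences are the 250 bases before the gene's outermost transcription start in the RefSeq table (GRCh38.p14), 5′ to 3′ on the gene's strand. Capitals mark matches to CAGAC (the core of the SMAD-binding element), CACGTG (the E-box) and GGGCGG (the GC box), searched on both strands.
TGFB2 promoter (chr1:218345086-218345335, plus strand): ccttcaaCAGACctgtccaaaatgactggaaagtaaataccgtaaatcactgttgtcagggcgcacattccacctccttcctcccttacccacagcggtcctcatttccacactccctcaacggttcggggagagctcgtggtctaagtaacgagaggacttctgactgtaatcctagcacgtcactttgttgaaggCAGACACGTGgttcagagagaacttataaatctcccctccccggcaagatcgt
SMAD7 promoter (chr18:48950966-48951215, minus strand): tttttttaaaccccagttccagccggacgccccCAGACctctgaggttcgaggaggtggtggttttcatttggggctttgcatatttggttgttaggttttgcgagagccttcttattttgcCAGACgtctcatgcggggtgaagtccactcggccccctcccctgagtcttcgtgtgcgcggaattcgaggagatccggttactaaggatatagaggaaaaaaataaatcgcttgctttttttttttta
TGFBI promoter (chr5:136028738-136028987, plus strand): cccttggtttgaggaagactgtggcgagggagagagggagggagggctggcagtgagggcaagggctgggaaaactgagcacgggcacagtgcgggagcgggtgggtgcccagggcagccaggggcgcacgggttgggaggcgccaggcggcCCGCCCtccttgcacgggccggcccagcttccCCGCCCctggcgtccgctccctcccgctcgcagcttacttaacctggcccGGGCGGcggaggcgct
The windows of TGFB2 and SMAD7 each held 2 matches to CAGAC, as did that of TGFB3, and the outermost windows of the other 7 members held 0. In TGFB2 they began 243 and 53 bases before the start, and the second shared its last base with an E-box. In SMAD7 they began 217 and 128 bases before it. TGFBI had 0 matches to CAGAC and 3 to the GC box. CAGAC was found in 38% of 35116 such windows over all genes, CACGTG in 6.34% and GGGCGG in 42.6%. The palindrome GTCTAGAC and the AP-1 site TGANTCA, in 0.182% and 6.57% of all windows, had 0 matches in the outermost windows of the 10 members. These matches describe letters in a window and say nothing about binding.

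The target of the shRNA, MTDH, stood at −3.18 ± 0.17 on the log2 scale (SD over n = 4 arrays; adjusted p = 5.19e-10 in limma), with single arrays between −3.41 and −3.01. Between 85.4% and 90.3% of the spots of an array were well above background in SB cells, and between 84.7% and 90.0% in SCt cells. Across the tested probes, the correlation of log2 ratios between pairs of arrays lay between 0.05 and 0.46, a description across probes that share array and dye. All 8 squamous epithelial markers on the list (KRT5, KRT14, KRT6A, KRT17, TP63, SFN, CDH1 and DSG3) passed the signal filter and lay between −0.28 and 0.14, none past an adjusted p of 0.05 in limma (4 at an unadjusted p under 0.05). Of 6 fibroblast markers, COL3A1, PDGFRB and LUM did not pass the signal filter. The other 3 fibroblast, all 4 immune and all 3 endothelial markers lay between −0.09 and 0.11, none past the threshold (0 at an unadjusted p under 0.05), and their part in the results was not tested.

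Of the 10 core genes, TGFB2, SMAD7 and TGFBI rose in SB cells and 0 fell, by limma with Benjamini-Hochberg adjustment over all 28505 probes at 0.05. Among all tested probes, 3.7% passed this threshold, 1.32% higher (376) and 2.38% lower (679) in SB cells. The core and the gene lists below were chosen with earlier results of these data known. Their counts beside such shares are therefore a description, not a test. With each array centred on its median in place of loess, 5599 probes were higher and 3338 lower, and of the core 4 genes were higher and 1 lower. The median log2 ratio of the 10 genes was 0.02, beside 0.01 over all tested probes. The ratio had the same sign on all 4 arrays for 4 of the 10 genes, namely the 3 that rose and SMAD3, which lay below 0, while 26.8% of all probes had the same sign and 14.2% lay above 0 on all 4 arrays. By array, 5, 6, 5 and 8 of the 10 genes were above 0 on arrays 1 to 4. Taken over the 4 arrays, the normalized log2 intensities of SB and SCt cells overlapped for all 10 genes, and they did not for 2.36% of all probes.

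**Figure D1:**
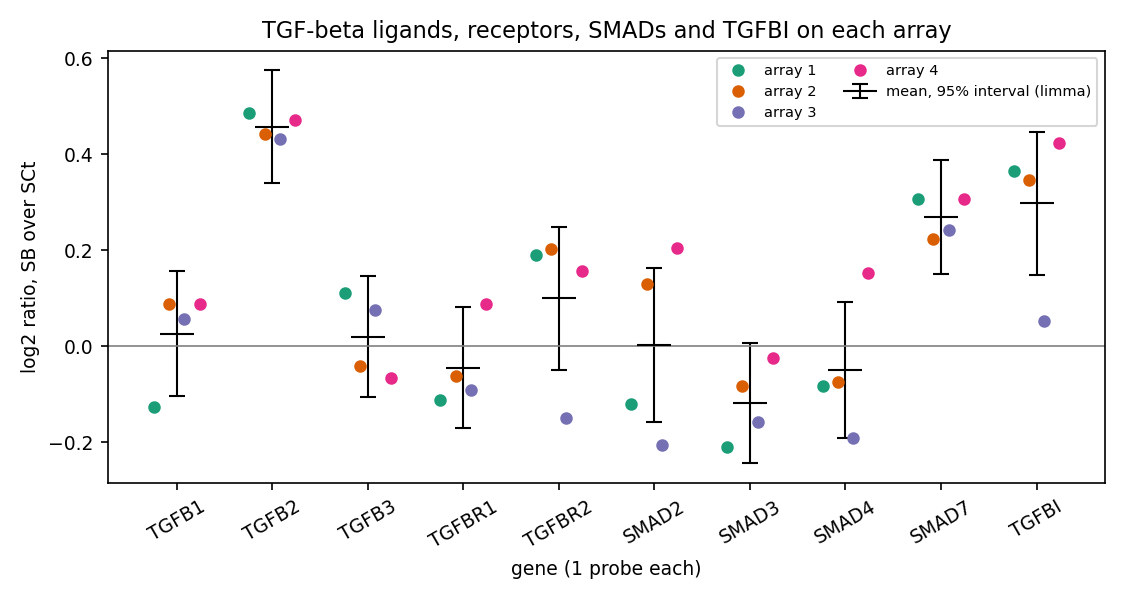
Log2 ratio of SB over SCt cells (vertical axis) for the 10 genes (horizontal axis), with a coloured point for each of the 4 arrays, a bar at the mean and whiskers for limma's 95% interval. The 4 points of TGFB2 lie between 0.43 and 0.49, whereas those of TGFB1 and TGFB3 fall on both sides of 0, and array 3 lies apart from the other arrays for TGFBR2 and TGFBI.

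The ligands were taken first. TGFB2, an isoform known for roles in development and in epithelial-mesenchymal transition, had the highest ratio of the core. Its normalized log2 intensity was 10.77, 10.82, 11.22 and 10.35 in SB cells on arrays 1 to 4, and 10.29, 10.37, 10.78 and 9.88 in SCt cells. SB cells were the higher on each array, although the ranges of both lines overlapped because arrays 3 and 4 differed in brightness for this probe. Its log2 ratios were 0.49, 0.44, 0.43 and 0.47. The mean was 0.46 ± 0.03 (SD over n = 4 arrays; adjusted p = 0.000812 in limma), a 1.37-fold higher level with a 95% interval of 1.27 to 1.49. TGFB2 was past the threshold under 14 of 15 other settings, the methods' t-test being the exception, with log2 ratios from 0.45 to 0.55. Some of these settings leave the ratio unchanged by construction, as listed in the last section.

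TGFB1, the most widely studied isoform, was measured by a probe spotted 10 times on each array. Its log2 ratios were −0.13, 0.09, 0.06 and 0.09, lower in SB cells on array 1 and higher on the other 3 arrays. The mean was 0.03 ± 0.10 (SD over n = 4 arrays; adjusted p = 0.860 in limma), and the 95% interval of the fold change ran from 0.930 to 1.11. The repeated spots of TGFB1 within an array had log2 ratios with an SD of 0.02 to 0.04, smaller than that between arrays. The spots of array 1 lay between −0.18 and −0.05 and those of array 2 between 0.06 and 0.12, so these arrays did not overlap.

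TGFB3, known for its part in palate closure and wound repair, had log2 ratios of 0.11, −0.04, 0.08 and −0.07, on both sides of 0. The mean was 0.02 ± 0.09 (SD over n = 4 arrays; adjusted p = 0.894 in limma), with a 95% interval of the fold change from 0.929 to 1.11. The probe of TGFB3 was dim, above only 16.4% of the tested probes in brightness. Median centring put it at −0.10 (adjusted p = 0.261 in limma), and the part of brightness in its value was not tested. The ratio of TGFB2 exceeded that of TGFB1 on all 4 arrays, by 0.35 to 0.61, and that of TGFB3 on all 4 arrays, by 0.36 to 0.54. With 4 arrays an exact sign-flip test (2-sided) cannot give a p under 0.125, and these pairs were compared after their values were known, so no test is given.

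**Figure D2:**
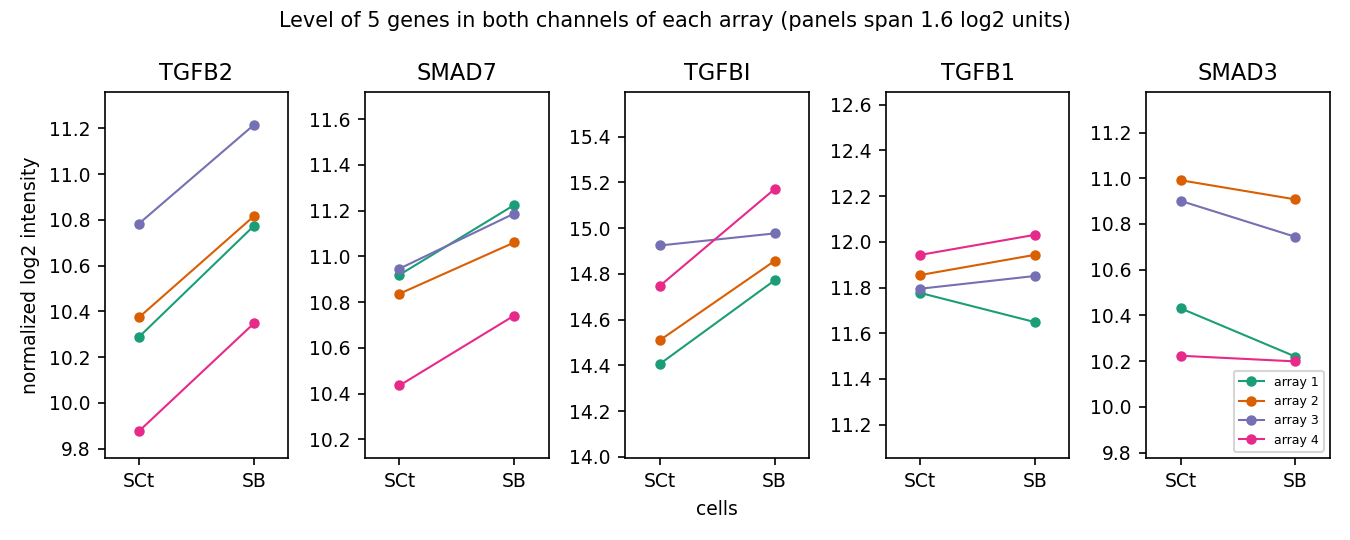
Normalized log2 intensity (vertical axis, panels of equal span) of TGFB2, SMAD7, TGFBI, TGFB1 and SMAD3 in SCt and SB cells (horizontal axis), each line joining both channels of 1 array. The lines of TGFB2 and SMAD7 rise in parallel on 4 of 4 arrays, and that of TGFBI on array 3 is nearly flat, at 14.92 in SCt and 14.98 in SB cells.

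Neither receptor was past the threshold. TGFBR2, the ligand-binding receptor, had log2 ratios of 0.19, 0.20 and 0.16 on arrays 1, 2 and 4 and of −0.15 on array 3. The mean was 0.10 ± 0.17 (SD over n = 4 arrays; adjusted p = 0.474 in limma), with a 95% interval of the fold change from 0.966 to 1.19. Without array 3 the mean was 0.18 (adjusted p = 0.229 in limma).

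TGFBR1, the kinase that phosphorylates the receptor-regulated SMADs, had log2 ratios of −0.11, −0.06, −0.09 and 0.09. The mean was −0.04 ± 0.09 (SD over n = 4 arrays; adjusted p = 0.737 in limma), with a 95% interval of the fold change from 0.888 to 1.06. Its probe was dim, above only 2.26% of the tested probes in brightness, and its value depended on the processing. The scanner software's own ratio put it at −0.33 (adjusted p = 0.0674 in limma), and median centring at −0.35 (adjusted p = 0.00807 in limma). Under median centring the dimmest 2851 probes had a median log2 ratio of −0.25, beside 0.01 after loess, and the part of brightness in the value of TGFBR1 was not tested. TGFBR2 was among the brightest 2850 probes, whose median was 0.25 under median centring and 0.00 after loess, and TGFBR2 itself moved to 0.30 (adjusted p = 0.0117 in limma).

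Of the SMAD genes, SMAD7 alone was past the threshold. SMAD7, the inhibitory SMAD, had a normalized log2 intensity of 11.22, 11.06, 11.19 and 10.74 in SB cells and of 10.92, 10.84, 10.95 and 10.44 in SCt cells on arrays 1 to 4. SB cells were the higher on each array, with log2 ratios of 0.31, 0.22, 0.24 and 0.31. The mean was 0.27 ± 0.04 (SD over n = 4 arrays; adjusted p = 0.0193 in limma), a 1.21-fold higher level with a 95% interval of 1.11 to 1.31. With 3 arrays the ratio stayed between 0.26 and 0.28, and the adjusted p from limma was 0.0735 without array 1, 0.0836 without array 2, 0.0981 without array 3 and 0.0178 without array 4.

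SMAD3, which binds DNA and transmits the TGF-beta signal, was the lowest of the core. Its log2 ratios were −0.21, −0.08, −0.16 and −0.02, below 0 on all 4 arrays. The mean was −0.12 ± 0.08 (SD over n = 4 arrays; adjusted p = 0.292 in limma), with a 95% interval of the fold change from 0.844 to 1.00, and no setting put it past the threshold. Its 8 to 10 usable spots per array had an SD of 0.03 to 0.08.

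SMAD2, the other receptor-regulated SMAD, had log2 ratios of −0.12, 0.13, −0.21 and 0.21, the widest spread of the core. Its mean was 0.00 ± 0.20 (SD over n = 4 arrays; adjusted p = 0.992 in limma), with a 95% interval of the fold change from 0.897 to 1.12. SMAD4, the common partner of both, had log2 ratios of −0.08, −0.07, −0.19 and 0.15, and its 8 or 9 usable spots per array had an SD of 0.07 to 0.10. Its mean was −0.05 ± 0.14 (SD over n = 4 arrays; adjusted p = 0.739 in limma), with a 95% interval of the fold change from 0.876 to 1.07. The ratio of SMAD7 exceeded those of SMAD2, SMAD3 and SMAD4 on all 4 arrays, by a mean of 0.27, 0.39 and 0.32, again as a description.

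TGFBI, a secreted matrix protein whose gene is named for its induction by TGF-beta, had a normalized log2 intensity of 14.77, 14.86, 14.98 and 15.17 in SB cells and of 14.41, 14.51, 14.92 and 14.75 in SCt cells. SB cells were the higher on each array, by 0.37, 0.35 and 0.42 on arrays 1, 2 and 4 and by 0.05 on array 3. The mean log2 ratio was 0.30 ± 0.17 (SD over n = 4 arrays; adjusted p = 0.0347 in limma), a 1.23-fold higher level with a 95% interval of 1.11 to 1.36. Array 3 was also the low array of TGFBR2, and without it the ratio of TGFBI was 0.38 (adjusted p = 0.0371 in limma). Without array 1 or array 2 the adjusted p from limma was 0.110 or 0.144, and under the scanner software's ratios it was 0.108. The probe of TGFBI was brighter than 97.1% of those tested, and of the brightest 2850 probes 3.37% were called higher against 1.32% of all. The part of brightness in its ratio was not tested.

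**Figure D3:**
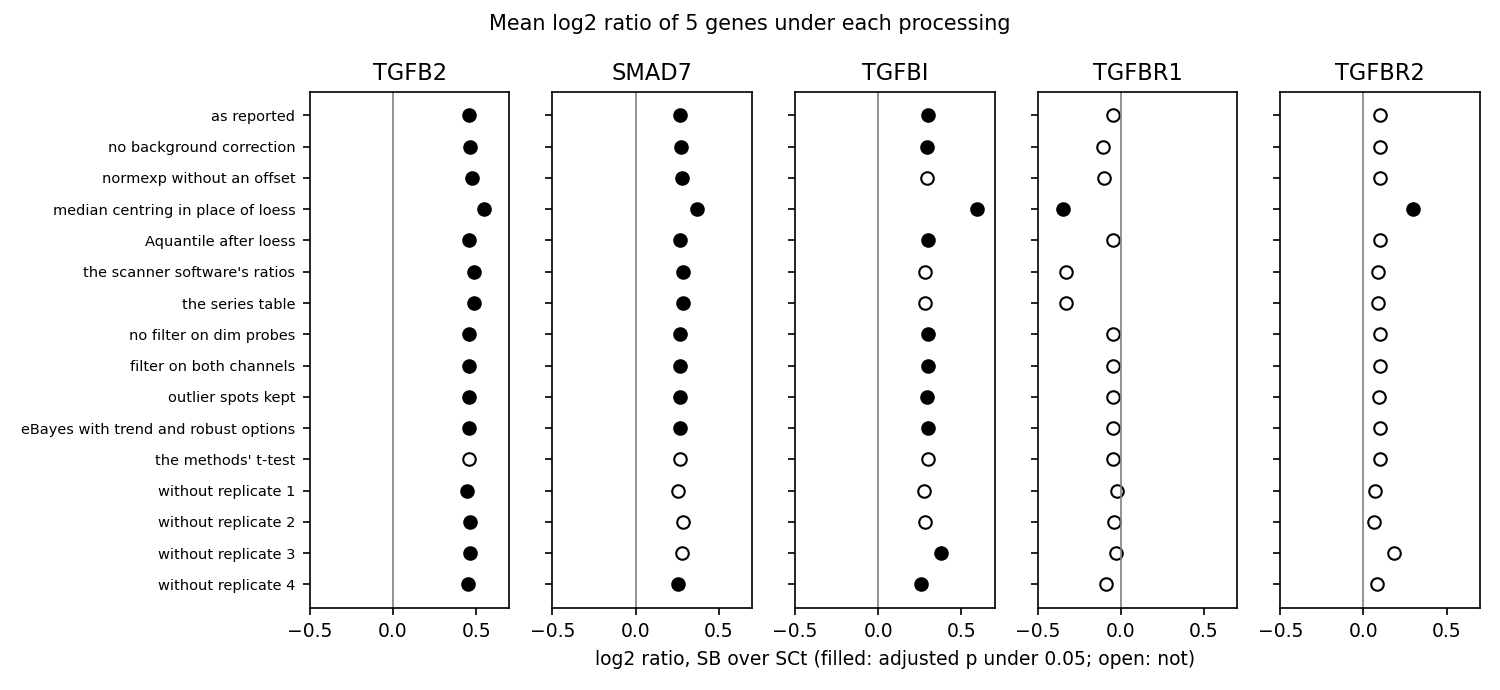
Mean log2 ratio of SB over SCt cells (horizontal axis) of TGFB2, SMAD7, TGFBI, TGFBR1 and TGFBR2 under the processing of the report and 15 other settings (vertical axis), filled where the adjusted p was under 0.05. TGFB2 is filled in all rows but the methods' t-test, whereas TGFBR1 and TGFBR2 are filled under median centring alone, at −0.35 and 0.30.

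The ratios of the nearest measured protein-coding genes were set beside those of the 3 genes that rose. RRP15, SPATA17 and LYPLAL1, which flank TGFB2, had log2 ratios of 0.04, 0.07 and −0.08. CTIF, ZBTB7C, DYM and C18orf32, which flank SMAD7, had 0.11, 0.03, 0.05 and −0.01, and IL9 and SMAD5, near TGFBI, had −0.08 and 0.08. None of these neighbours was past the threshold in limma (adjusted p from 0.298 to 0.956).

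Around the core, 50 further genes of the pathway were examined, each by its brightest kept probe. Of the 49 that passed the signal filter (ACVRL1 did not), 5 fell in SB cells and 0 rose, and their median log2 ratio was 0.01. The count of rises depended on the probe, since the mean over all kept probes of each gene gave 5 falls and 1 rise, and the less bright probe of PMEPA1, described with the inhibitors, was past the threshold. Over all 16582 named genes tested, 4.19% were called, 1.22% higher and 2.97% lower, with a median of 0.00. With median centring 14 of the 49 were higher and 8 lower, beside 5599 and 3338 of all 28505 probes.

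Among 13 genes listed under latency and activation, LTBP2 fell. It encodes a matrix protein of the family named latent TGF-beta binding proteins, and its binding of TGF-beta was not measured here. Its log2 ratios were −0.63, −0.42, −0.50 and −0.09, with a mean of −0.41 ± 0.23 (SD over n = 4 arrays; adjusted p = 0.0153 in limma). LTBP2 was not past the threshold without array 1 (adjusted p = 0.0655 in limma), array 2 (0.0596) or array 3 (0.169). The other 12, among them LTBP1 (0.08), LTBP3 (−0.03), LTBP4 (0.05), FURIN (0.09), THBS1 (0.08), ITGB6 (−0.07) and ITGB8 (−0.11), lay between −0.11 and 0.09. Of the 4 measured co-receptors and receptor-associated genes, CD109, a membrane-anchored co-receptor known to dampen TGF-beta signalling, fell. Its log2 ratios were −0.40, −0.37, −0.52 and −0.37, with a mean of −0.41 ± 0.07 (SD over n = 4 arrays; adjusted p = 0.00213 in limma). CD109 was past the threshold under 14 of 15 other settings. TGFBR3, ENG and TGFBRAP1 lay between 0.02 and 0.11.

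Of the 17 signalling partners, USP9X, a deubiquitinase that acts on SMAD4, had a mean of −0.27 ± 0.08 (SD over n = 4 arrays; adjusted p = 0.0226 in limma). TRIM33, a ubiquitin ligase that binds SMAD proteins, had −0.27 ± 0.15 (SD over n = 4 arrays; adjusted p = 0.0484 in limma). USP9X was not past the threshold without array 2 or array 3 (adjusted p up to 0.139 in limma), and TRIM33 was past it under 6 of 15 other settings. The kinase MAP3K7 (−0.09), the receptor anchor ZFYVE9 (0.09) and the coactivators EP300 (0.08) and CREBBP (−0.05) did not pass it.

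Of the 15 inhibitors and regulators of turnover, UCHL5, a deubiquitinase of the proteasome that can act on TGFBR1, fell. Its log2 ratios were −0.30, −0.39, −0.46 and −0.48, with a mean of −0.41 ± 0.08 (SD over n = 4 arrays; adjusted p = 0.00276 in limma), and its other probe gave −0.30. It was past the threshold under 14 of 15 other settings. SMAD6, the inhibitory SMAD of the BMP branch, had 0.14 ± 0.29 (SD over n = 4 arrays; adjusted p = 0.454 in limma), and the ligases SMURF1 and SMURF2 had −0.18 and −0.08. The corepressors SKI, SKIL and TGIF1 had 0.15, −0.02 and −0.17, none past the threshold. PMEPA1, a feedback inhibitor, was read differently by its probes, the brighter at 0.12 ± 0.08 (SD over n = 4 arrays; adjusted p = 0.275 in limma) and the other at 0.42 ± 0.13 (SD over n = 4 arrays; adjusted p = 0.00410 in limma).

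The 33 listed target genes, all measured (ID3 on 2 arrays), were split in sign. The list was not divided into genes that TGF-beta raises and genes that it lowers, so their signs give no direction of the pathway. At the brightest probe of each gene, a rise was found for ID2 and a fall for VEGFA, 18 genes lay above 0 and 15 below, and the median was 0.03. Over all 16582 named genes tested, 1.22% were called higher and 2.97% lower. With median centring 13 were higher and 2 lower, beside 5599 and 3338 of all 28505 probes. With the kept probes of each gene averaged, 3 were higher and 1 lower. TPM1, an actin-binding tropomyosin, had 0.15 at its brightest probe (adjusted p = 0.177 in limma) and was past the threshold at its other probes, at 0.39 ± 0.18 and 0.45 ± 0.17 (SD over n = 4 arrays each; adjusted p = 0.0102 and 0.00411 in limma). ID2, a dominant-negative partner of basic helix-loop-helix factors, had log2 ratios of 0.91, 0.21, 0.33 and 0.22, array 1 being the highest, with a mean of 0.42 ± 0.33 (SD over n = 4 arrays; adjusted p = 0.0420 in limma) and of 0.40 at its other probe. It was past the threshold under 5 of 15 other settings, and without array 1 it was 0.25 (adjusted p = 0.0799 in limma). VEGFA, an angiogenic growth factor, had −0.40 ± 0.24 (SD over n = 4 arrays; adjusted p = 0.0203 in limma) and −0.45 at its other probe. It was not past the threshold without array 1, 2 or 3, with an adjusted p from limma of 0.0579, 0.0553 or 0.140.

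Several well-known targets of SMAD3 were also read, chosen after their values were seen. CCN2, a matricellular protein, had 0.04 ± 0.13 (SD over n = 4 arrays). The cell cycle inhibitors CDKN1A and CDKN2B had 0.08 ± 0.08 and 0.19 ± 0.38 (SD over n = 4 arrays each), the latter with a single array at 0.75. None of these 3 genes, each read by 1 probe, was past the threshold. They do not stand for the 33 listed targets. Among those, ID2 and the less bright probes of TPM1 were past it as rises and VEGFA as a fall.

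**Figure D4:**
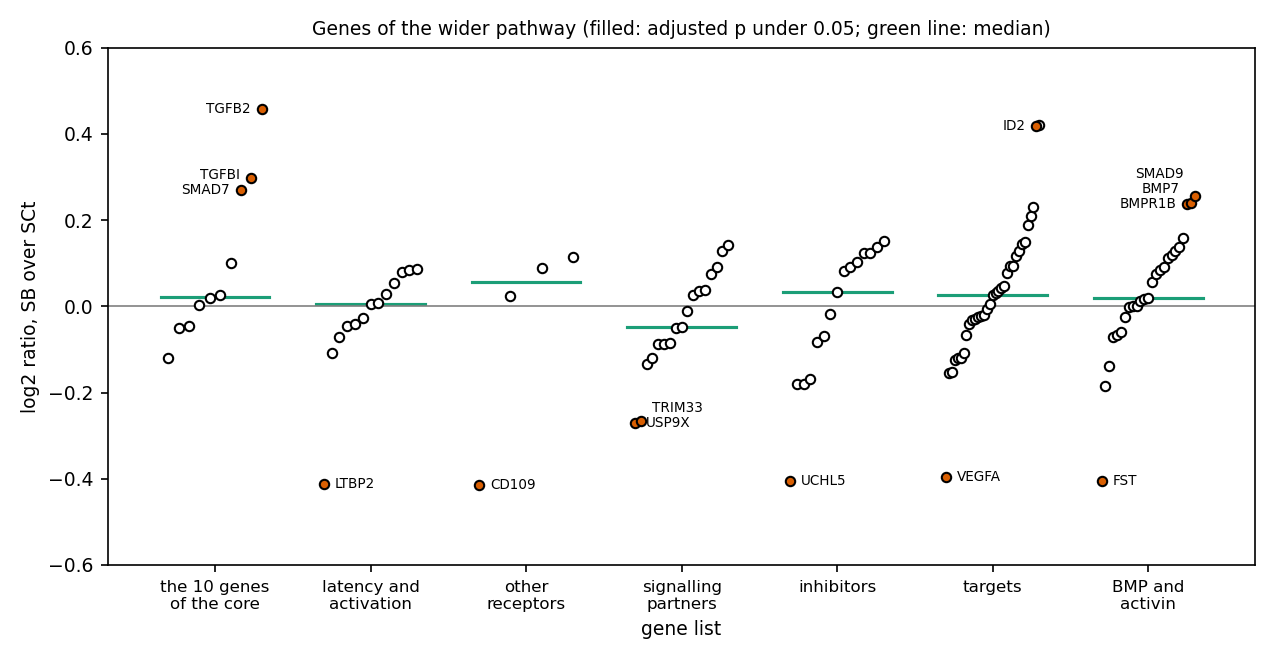
Log2 ratio of SB over SCt cells (vertical axis) of the core and of each list of pathway genes (horizontal axis, 1 point for the brightest kept probe of each gene), filled and named where the adjusted p was under 0.05, with a line at the list's median. Filled points of the core lie above 0 (TGFB2, TGFBI and SMAD7), those of latency, receptors, signalling partners and inhibitors below it, and each list's median lies within 0.06 of 0. The column of inhibitors also holds regulators of turnover, among them UCHL5, its filled point, and shows PMEPA1 by its brighter probe alone.

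The BMP and activin branch, which uses related receptors and SMADs, was read by 25 of 30 genes. SMAD9, BMP7 and BMPR1B rose and FST fell in SB cells, and the median was 0.02. Over all 16582 named genes tested, 1.22% were called higher and 2.97% lower. With median centring 5 were higher and 5 lower, beside 5599 and 3338 of all 28505 probes. FST, the secreted antagonist of activin, had log2 ratios of −0.57, −0.25, −0.32 and −0.49, with a mean of −0.41 ± 0.15 (SD over n = 4 arrays; adjusted p = 0.00623 in limma). Without array 3 its adjusted p from limma was 0.0598. SMAD9, a receptor-regulated SMAD of the BMP branch, had 0.26 ± 0.09 and the receptor BMPR1B 0.24 ± 0.07 (SD over n = 4 arrays each; adjusted p = 0.0343 and 0.0396 in limma). BMP7, a ligand, had 0.24 ± 0.05 at its brightest probe (SD over n = 4 arrays; adjusted p = 0.0332 in limma) and 0.19 and 0.04 at its other probes, which were not past the threshold. Without array 1, 2 or 3, none of SMAD9, BMP7 and BMPR1B was past it, with adjusted p-values from limma between 0.0634 and 0.189.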

How the data were processed

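The authors deposited the output of Agilent Feature Extraction 10.5.1.1 for each of 4 arrays, with the median red and green intensity of each spot and its local background, not normalized. The deposited files also hold the software's own background-subtracted, dye-normalized ratio as a log10 value. A deposited table of the series gives SB over SCt on a log2 scale. It was equal to the software's ratio averaged over spots within 0.01 for 93% to 95.9% of probes. Flags of the software marked spots as well above background or as outliers.

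Normexp background correction (limma 3.58.1, R 4.3.3; offset 50) used all 44495 spots, and its offset makes the changes of weak spots smaller. The 1377 control spots and the outlier spots (1.89% to 2.71% per array) were then left out, loess was applied within each array and the spots of a probe were averaged. Probes well above background (most of their spots) in the same channel on all 4 arrays, with values on at least 2 arrays, were tested with lmFit and eBayes for a mean log2 ratio other than 0, with Benjamini-Hochberg adjustment over all 28505. Channel levels were taken after Aquantile normalization. The number of arrays limits the precision. RefSeq accessions (GRCh38.p14) named 24826 of 34127 probes, and the other 9301 stayed unnamed here. Any further probe of a member or list gene among the unnamed would have been missed. The array design refers to an earlier build, so probe positions are not given. Promoter windows and neighbouring genes follow GRCh38.p14.

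The members and gene lists were chosen with earlier results of these data known. Named by rule were all 10 members with every probe found through an accession, MTDH, and genes from each list. From a list these were at most 4 falls and 4 rises, the largest among those that were called and kept 1 sign over the arrays. The other list genes and the neighbours given with values were chosen after these were seen. Some listed target genes are not reported here. The fit was first tested on simulated data.

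The alternatives were no background correction, normexp without an offset, median centring, Aquantile, the software's ratios, the series table, no filter on dim probes or one on both channels, use of the outlier spots, a robust eBayes with trend, the t-test of the methods, leaving out each array and, for the lists, the mean over a gene's probes. All arrays lie on 1 slide, so it could not serve as a block.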

Additional observations from a re-analysis of the deposited data

Results flagged for a closer look

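The log2 ratios of 124 genes with values on all 4 arrays were examined, namely the core, the lists, MTDH and the neighbours of the genes that rose, each by its brightest kept probe. In 10 of them 1 array lay far from the other 3, by a gap taken as a share of the range of all 4 arrays, and chance marks about 5%. TGFB1 had a gap of 0.849 of its range, array 1 at −0.13 being the low one. TGFBR2 had a gap of 0.869, with array 3 at −0.15. CD109 had a gap of 0.834, with array 3 at −0.52, and ID2 one of 0.835, with array 1 at 0.91. MAP3K7 had a gap of 0.836, with array 3 at −0.28, and PMEPA1 one of 0.903, with array 2 at 0.00. Array 4 stood apart for GADD45B (0.859, at −0.04), SMAD5 (0.831, at 0.41) and BMPR1A (0.867, at 0.45), and array 1 for ITGA5 (0.86, at −0.30).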

How the results depend on the processing

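TGFB2, SMAD7 and TGFBI were higher in SB cells under all 15 other settings, and no member past the threshold changed sign. Several of these settings could not change the ratio, namely Aquantile, both changes of filter, eBayes with trend and the t-test. Aquantile left the adjusted p as it was too, and the series table repeated the software's ratios for these genes. Such settings are no separate check of the sign. Over the fits with 3 arrays, the members past an adjusted p of 0.05 numbered from 1 (without array 1 or 2) to 3, the other pathway genes from 2 to 7, the target genes from 0 without array 1, 2 or 3 (8, 7 and 6 at an unadjusted p under 0.05) to 4, the BMP and activin genes from 0 (5 at an unadjusted p under 0.05) to 4, and all probes from 204 (without array 3) to 1991 (without array 4), beside 640 without array 1 and 431 without array 2.

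Median centring in place of loess gave 5 members, 22 other pathway genes, 15 target genes, 10 BMP and activin genes and 8937 probes in place of 3, 5, 2, 4 and 1055. The methods' t-test gave 0 in each of these sets after adjustment (at an unadjusted p under 0.05, 3, 11, 4, 5 and 3936). Under it the adjusted p was 0.143 for TGFB2, 0.186 for SMAD7 and 0.338 for TGFBI, and it was 0.143 for MTDH, the target of the shRNA. Since it called 0 probes, MTDH included, the t-test cannot tell these genes apart from unchanged ones. The software's ratios gave 0 target genes (5 at an unadjusted p under 0.05). The series table gave 1 target gene and 698 probes. Without background correction, under normexp without an offset and under eBayes with trend, 1 target gene was called each time, and 4 were when the probes of each gene were averaged. Normexp without an offset gave 1 BMP and activin gene, and under it the adjusted p of TGFBI from limma was 0.0732. The cause was not tested. Both lines share each array, so every fit of the ratio is already paired, and an unpaired fit was not run.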
